A study of Homo sapiens with 9 samples.

Results

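Transcript levels of 32 genes of transforming growth factor beta (TGF-beta) and activin signaling and response were examined in OVCAR3 ovarian cancer cells in which *CTCFL* was overexpressed or knocked down. The genes were listed by their known roles, as ligands, latency proteins, activators and proteases (with a protease inhibitor and a protease receptor), activin antagonists, receptors, SMAD proteins, inhibitors and response genes. They were chosen with earlier results of these data known, so their shares beside those of all genes are descriptions. Each symbol matched exactly 1 of the 60660 gene identifiers in the count matrix. Of the 32 genes, 31 had enough counts to be tested among 17794 genes, and the ligand gene *INHBA* did not. *TGFB1*, which encodes a ligand, and *TGFBI*, which encodes a secreted matrix protein, are separate genes and are given separately throughout.

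OVCAR3 is an established cell line of high-grade serous ovarian carcinoma and was grown in RPMI-1640 medium with fetal bovine serum and bovine insulin. Poly(A) RNA of 9 libraries was sequenced, with 3 biological replicates in each of the groups Control, CTCFL-OE and CTCFL-KD, and each replicate pooled 3 technical replicates. Control cells carried a LacZ plasmid, according to the methods of the study. CTCFL-OE cells were transiently transfected with 2 µg of pCpGfree-vitroHBORIS, a plasmid with the open reading frame of *CTCFL* (called BORIS in the labels), using Xfect reagent, and were collected after 48 h. CTCFL-KD cells were treated with siRNA, and their RNA came from the experiments of an earlier publication, so the knockdown and the separate experiment cannot be told apart in any comparison with CTCFL-KD. Both comparisons with Control use the same 3 Control libraries, while CTCFL-KD against CTCFL-OE compares none of them. The test of the latter still shares an estimate of the spread with all 9 libraries, Control among them. The study asked which genes respond when the amount of CTCFL is raised or lowered.

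As background, TGF-beta ligands are secreted in a latent complex with their own propeptide and with latent TGF-beta binding proteins, which hold them in the extracellular matrix until proteases, integrins or matrix proteins release them. Released TGF-beta and activins bind serine/threonine kinase receptors, which phosphorylate SMAD2 and SMAD3, and these join SMAD4 in the nucleus and change the transcription of target genes, among them inhibitors of the pathway itself. In normal epithelium the pathway is known for growth arrest, and in ovarian and other carcinomas for matrix production, migration and loss of epithelial features.

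The targeted gene was looked at before the pathway. Levels are given as CPM, counts relative to the library size as scaled by TMM (trimmed mean of M values), and library values are listed in the order of replicates 1, 2 and 3. *CTCFL* (ENSG00000124092.12, chr20:57495966-57525652 on GRCh38, minus strand) had 0.30, 0.35 and 0.51 CPM in Control, 1.64, 1.78 and 4.43 CPM in CTCFL-OE and 0, 0.059 and 0 CPM in CTCFL-KD. Every CTCFL-OE library lay above every Control library and every CTCFL-KD library below, and replicate 3 of CTCFL-OE stood above the other replicates of its group. A count of 0 allows up to 3 counts, which is 0.117 to 0.271 CPM across the 9 libraries. Against this floor of 3 counts per library, *CTCFL* was at least 1.89-fold lower in CTCFL-KD than in Control and at least 12.8-fold lower than in CTCFL-OE.

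A gene was called higher or lower where its log2 fold change exceeded 1 in either direction and its adjusted p was under 0.1 in CTCFL-OE against Control, or under 0.05 in CTCFL-KD against Control and in CTCFL-KD against CTCFL-OE. The adjusted p comes from the quasi-likelihood test of edgeR, adjusted by Benjamini-Hochberg over the 17794 genes, in a fit to all 9 libraries, and is named edgeR adjusted p below. Each fit was repeated under 20 alternative settings, of which 9 leave out 1 library each, and those that changed the call of one of the 31 genes are given with it, in full or by example. *CTCFL* itself was called higher in CTCFL-OE (log2 fold change 2.73) and lower in CTCFL-KD. The call in CTCFL-OE was lost without Control replicate 1, 2 or 3 (edgeR adjusted p = 0.169, 0.176 and 0.125). That in CTCFL-KD was lost without CTCFL-KD replicate 3 (edgeR adjusted p = 0.0551).

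The libraries held between 14332622 and 24490080 counts. Mitochondrial genes took 6.52%, 6.31% and 6.16% of the counts in Control, 7.40%, 12.4% and 14.9% of those in CTCFL-OE and 11.8%, 9.64% and 7.80% of those in CTCFL-KD. Markers of the labelled cell line were present, with 12 of 12 epithelial and ovarian carcinoma genes (*PAX8*, *WT1*, *MUC16*, *EPCAM*, *KRT7*, *KRT8*, *KRT18*, *CDH1*, *CLDN3*, *CLDN4*, *MSLN* and *SOX17*) above the count filter and *KRT8* the most abundant in every library. Their summed level was 5589, 5682 and 5600 CPM in Control, 5312, 5255 and 5149 CPM in CTCFL-OE and 16390, 10400 and 9932 CPM in CTCFL-KD. All 3 CTCFL-KD libraries were thus above the other 6, and in CTCFL-KD 7 of the 12 markers were called higher, against 15.3% of all genes, and *KRT7* lower, against 7.94%. Of 10 fibroblast markers, 4 were tested, and the summed level of the 10 was 33.8, 32.2 and 28.0 CPM in Control, 25.0, 36.9 and 44.2 CPM in CTCFL-OE and 43.0, 39.8 and 37.8 CPM in CTCFL-KD. *COL1A1* was the most abundant of them in every library, with Control at 29.8 ± 2.94 CPM (SD, n = 3) and CTCFL-KD at 23.3 ± 2.49 CPM (SD, n = 3). *COL1A2*, *COL3A1* and *DCN* had a count of 0 in each Control library. In CTCFL-KD, *COL1A2* reached 13.9 ± 0.360 CPM (SD, n = 3), at least 99.8-fold above the floor in Control, *COL3A1* reached 0.565 ± 0.144 CPM, at least 4.05-fold above it, and *POSTN* went from 0.131 ± 0.110 to 0.865 ± 0.185 CPM. Means of 3 other markers were not higher there, with *FAP* at 0.707 ± 0.0893 CPM (SD, n = 3) in Control and 0.662 ± 0.191 CPM in CTCFL-KD, *PDGFRA* at 0.186 ± 0.0559 and 0.136 ± 0.0385 CPM and *THY1* at 0.134 ± 0.153 and 0.115 ± 0.0998 CPM. The part of these differences between the groups in the results that follow was not tested, and a change in the RNA per cell cannot be told apart from a change in the share of cells in such bulk RNA.

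In CTCFL-OE, 1 of 31 TGF-beta and activin genes was called higher, the coreceptor *TGFBR3*, against 1.37% of all genes tested, and 3 were called lower, *TGM2*, *PMEPA1* and *TGFBI*, against 0.702% of all genes. These shares of all genes move with single libraries, since without 1 library between 17 and 948 of all genes were called higher and between 26 and 236 lower, and in 4 of these fits more were lower than higher. Without the fold threshold 6 genes passed the adjusted p, 2 of them higher and 4 lower, against 3.15% of all genes. The libraries of CTCFL-OE and Control did not overlap for 7 genes that were higher and 11 that were lower in CTCFL-OE, where 37.1% of all genes did not overlap. The median log2 fold change of the 31 genes was -0.20, beside -0.01 for all genes.

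In CTCFL-KD, 7 of the 31 genes were called higher than in Control, against 15.3% of all genes tested, and 10 were called lower, against 7.94% of all genes. The 7 were *TGFB3*, *LTBP1*, *FST* and the receptor genes *TGFBR1*, *TGFBR3*, *ACVR1B* and *ACVR2A*. The 10 were *THBS1*, *PLAU*, *SERPINE2*, *TGM2*, *SMAD3*, *SMAD7*, *SKIL*, *PMEPA1*, *TGFBI* and *KLF10*. Without the fold threshold 23 genes passed the adjusted p, 8 of them higher and 15 lower, against 38.2% of all genes. Libraries did not overlap for 9 genes that were higher and 17 that were lower in CTCFL-KD, where 56.3% of all genes did not overlap, and the median log2 fold change of the 31 genes was -0.58, beside 0.08 for all genes. Directly against CTCFL-OE, 3 genes were called higher in CTCFL-KD, against 10.6% of all genes, and 8 were called lower, against 6.42%, with a median of -0.32 beside 0.04 for all genes. The 4 genes called in CTCFL-OE were also called in CTCFL-KD, as were 227 of the 368 called in CTCFL-OE among all genes. Both comparisons share the Control libraries. At least 1 of the comparisons with Control called 17 of the 31 genes, and 14 were called in neither. Among all genes, 2.07% were called in CTCFL-OE and 23.2% in CTCFL-KD.

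**Figure D1:**
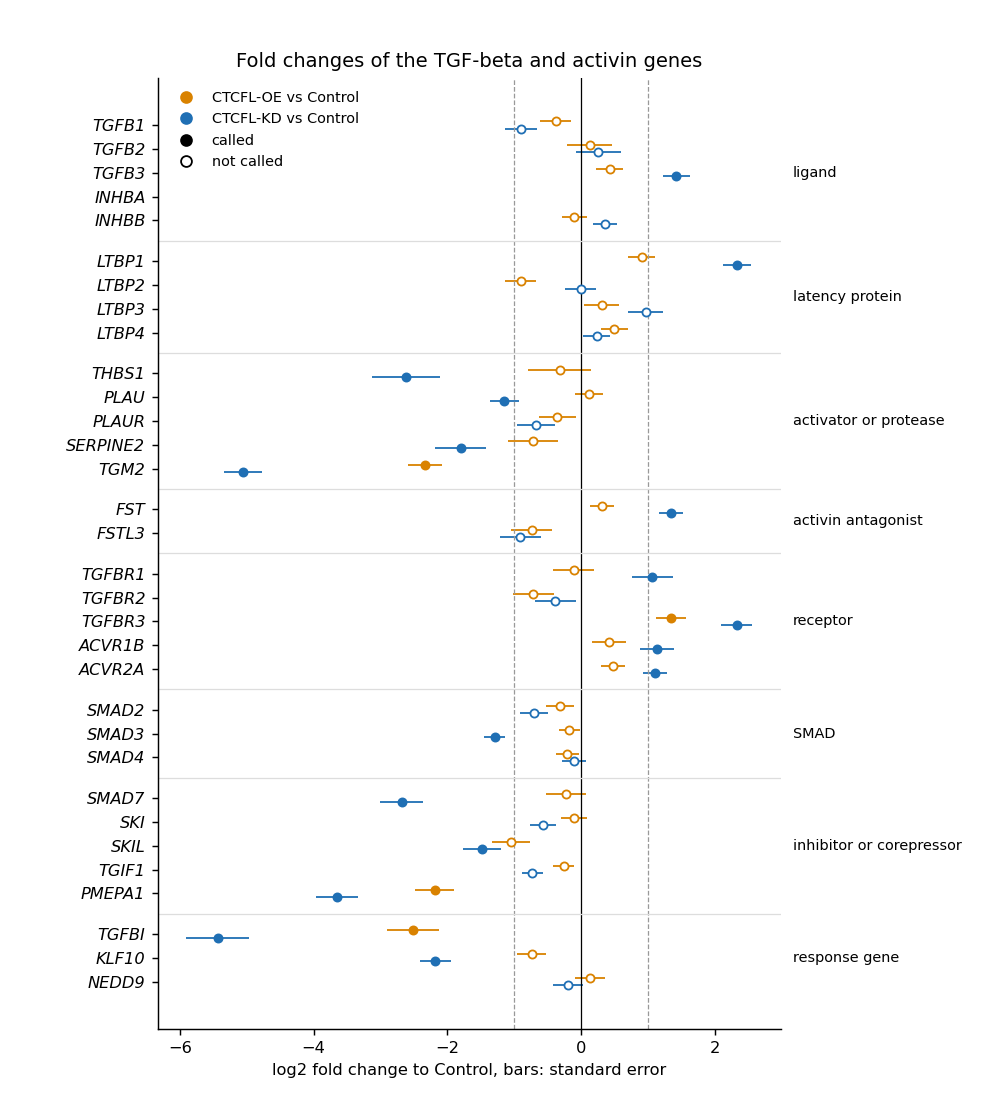
Log2 fold change to Control (horizontal axis) of the tested genes by role, for CTCFL-OE (orange) and CTCFL-KD (blue), with bars for the standard error, filled points for called genes and dashed lines at the fold threshold; *INHBA* was not tested and has no point. The lowest points are *TGFBI* at -5.44 and *TGM2* at -5.06 in CTCFL-KD, and the highest are *LTBP1* and *TGFBR3* in CTCFL-KD, both at 2.33.

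Promoter sequences are shown for *TGFBR3*, *PMEPA1* and *TGFBI*, since these genes were called in both comparisons with Control, and *TGM2*, the remaining gene called in both, is named without one. Each sequence runs 5′ to 3′ on the strand of its gene from 250 bases before to 50 bases after the transcription start, as given by RefSeq on GRCh38.p14. For *TGFBR3* this is chr1:91886102-91886401 on the minus strand, inside the span of the gene in GENCODE, and capitals mark a pair of GC boxes (GGGCGG or its complement), at positions -136 and -54 from the transcription start. For *PMEPA1* it is chr20:57711423-57711722 on the minus strand, the nearest to the annotated gene start of 4 RefSeq entries, and capitals mark matches to CAGNNGGC, a part of the core motif shared by CTCF and CTCFL. For *TGFBI* it is chr5:136028738-136029037 on the plus strand, and capitals mark chr5:136028925-136028933, which holds the letters of a CTCFL binding site that the study lists from a motif search, 1 base before its listed start. The study lists the site for *TGFBI*, while its text names *TGFB1*, also as differentially expressed in both conditions. Its text further counts *TGFB1* among genes whose site matched a ChIP-seq peak, in public CTCFL and CTCF data of another ovarian cancer cell line. The site reads CGCCAGGGG on the opposite strand, and 54 bases lie between it and the transcription start.
TGFBR3: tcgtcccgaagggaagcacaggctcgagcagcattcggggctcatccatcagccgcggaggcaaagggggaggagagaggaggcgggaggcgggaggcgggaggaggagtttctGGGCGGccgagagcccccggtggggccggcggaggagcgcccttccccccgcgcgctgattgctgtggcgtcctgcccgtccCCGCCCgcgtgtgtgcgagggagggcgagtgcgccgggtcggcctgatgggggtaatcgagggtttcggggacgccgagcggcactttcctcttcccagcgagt
PMEPA1: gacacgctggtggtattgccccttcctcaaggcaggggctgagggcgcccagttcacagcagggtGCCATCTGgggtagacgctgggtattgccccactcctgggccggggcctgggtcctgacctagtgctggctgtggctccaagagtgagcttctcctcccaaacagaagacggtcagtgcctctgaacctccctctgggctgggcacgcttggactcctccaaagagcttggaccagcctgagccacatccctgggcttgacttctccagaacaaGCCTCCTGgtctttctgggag
TGFBI: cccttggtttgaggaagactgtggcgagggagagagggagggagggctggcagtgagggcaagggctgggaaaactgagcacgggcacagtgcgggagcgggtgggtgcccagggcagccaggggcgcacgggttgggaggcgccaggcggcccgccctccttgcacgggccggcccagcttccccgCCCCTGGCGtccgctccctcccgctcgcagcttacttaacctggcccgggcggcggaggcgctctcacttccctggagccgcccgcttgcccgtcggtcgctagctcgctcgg

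The GC content of these promoters was 71.7% for *TGFBR3*, 62.0% for *PMEPA1* and 72.7% for *TGFBI*, against a median of 58.7% over the 35116 promoters of the RefSeq table. The *TGFBI* promoter also held 4 GC boxes, of which the match at base 185 overlaps the site at base 188, and 1 match to CAGNNGGC at base 145. None of the 3 promoters held CAGACA (the core of the SMAD-binding CAGA box), TGANTCA (the AP-1 site) or TATAAA (the TATA box) on either strand. Over all promoters, CAGACA was found on either strand in 16.9%, TGANTCA in 7.71%, GGGCGG in 45.0%, TATAAA in 11.5% and CAGNNGGC in 30.1%. Among the 29 genes of the pathway with a promoter entry, CAGACA was found in 5, TGANTCA in 2, GGGCGG in 17, TATAAA in 3 and CAGNNGGC in 11. These counts use only the first entry of each gene, which need not be the entry shown for *PMEPA1*, while the shares of all promoters use every entry. These matches describe letters in a 300-base window and not binding.

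The ligands showed a call for *TGFB3* in CTCFL-KD and for no other gene. *TGFB1* (ENSG00000105329.11, chr19:41301587-41353922) had 37.3, 32.2 and 33.9 CPM in Control, 20.3, 24.2 and 34.9 CPM in CTCFL-OE and 22.9, 14.6 and 18.1 CPM in CTCFL-KD. All CTCFL-KD libraries lay below all Control libraries, while replicate 3 of CTCFL-OE fell within the Control range. The log2 fold change of *TGFB1* in CTCFL-KD was -0.90 (standard error 0.23, edgeR adjusted p = 0.0118), short of the fold threshold, and that in CTCFL-OE was -0.38 (standard error 0.23, edgeR adjusted p = 0.409). Without replicate 1 of CTCFL-KD it was called lower, with a log2 fold change of -1.07 and an edgeR adjusted p of 0.00228, where the alternatives gave adjusted p between 6.63e-05 and 0.0449. The difference between CTCFL-KD and CTCFL-OE was -0.52 on the log2 scale and did not pass the test (edgeR adjusted p = 0.123). Of the exonic bases of *TGFB1*, 6.59% overlap *HNRNPUL1* on the opposite strand, and the strand setting of the counting is not given.

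*TGFB3*, which encodes a ligand with the same receptors as TGF-beta 1, had 4.36, 4.82 and 4.81 CPM in Control, 5.02, 6.27 and 7.62 CPM in CTCFL-OE and 11.1, 13.0 and 13.4 CPM in CTCFL-KD. The 3 groups did not overlap, with Control lowest and CTCFL-KD highest. *TGFB3* rose by a log2 fold change of 1.42 in CTCFL-KD (standard error 0.20, edgeR adjusted p = 0.000363), and its value in CTCFL-OE was 0.43 (standard error 0.20, edgeR adjusted p = 0.293). Against CTCFL-OE, its log2 fold change in CTCFL-KD was 0.99 (edgeR adjusted p = 0.00407), just under the fold threshold, and it passed in 4 of 20 alternatives, among them without CTCFL-OE replicate 3 (1.14) and without CTCFL-KD replicate 1 (1.07). *TGFB2* had 62.0 ± 5.18 CPM (SD, n = 3) in Control, with CTCFL-OE at 67.9 ± 13.4 CPM and CTCFL-KD at 73.9 ± 37.8 CPM, where replicate 1 was at 33.4 CPM and replicates 2 and 3 were at 80.2 and 108 CPM. This spread within CTCFL-KD was larger than any difference between the groups, and the edgeR adjusted p of *TGFB2* was 0.866 in CTCFL-OE and 0.578 in CTCFL-KD. *TGFB2* also shares 22.7% of its exonic bases with *TGFB2-OT1* on the same strand, so its counts are uncertain. *INHBB*, which encodes the beta B subunit of activin and inhibin, had 76.5 ± 5.70 CPM (SD, n = 3) in Control, with CTCFL-OE at 71.3 ± 14.2 CPM and CTCFL-KD at 98.0 ± 7.62 CPM. Its log2 fold change was 0.36 in CTCFL-KD (edgeR adjusted p = 0.146). *INHBA*, the gene of the beta A subunit, had at most 8 counts in any library and was not tested. Its CTCFL-KD libraries lay below its Control libraries, at least 1.25-fold lower against the floor of 3 counts.

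Of the 4 genes of latency proteins, *LTBP1* moved most in CTCFL-KD. *LTBP1* (chr2:32946953-33399509) had 58.3, 62.3 and 62.9 CPM in Control, 120, 104 and 120 CPM in CTCFL-OE and 224, 349 and 350 CPM in CTCFL-KD. No library of a group overlapped another group, and CTCFL-OE lay between Control and CTCFL-KD. In CTCFL-KD *LTBP1* was 5.04-fold higher than in Control, a log2 fold change of 2.33 (standard error 0.21, edgeR adjusted p = 2.14e-05). Its log2 fold change of 0.91 in CTCFL-OE (standard error 0.20, edgeR adjusted p = 0.0587, and up to 0.286 over the alternatives) passed the adjusted p but not the fold threshold, and CTCFL-KD was above CTCFL-OE by 1.43 (standard error 0.20, edgeR adjusted p = 0.000563). *LTBP2* differed in another way, with 34.6 ± 1.94 CPM (SD, n = 3) in Control, with CTCFL-OE at 18.5 ± 5.01 CPM and CTCFL-KD at 34.3 ± 7.55 CPM. All CTCFL-OE libraries of *LTBP2* lay below the other 6, with a log2 fold change of -0.90 in CTCFL-OE (edgeR adjusted p = 0.0894, and up to 0.333 over the alternatives) and of -0.01 in CTCFL-KD (edgeR adjusted p = 0.98). Directly compared, *LTBP2* was higher in CTCFL-KD than in CTCFL-OE by 0.90 on the log2 scale (edgeR adjusted p = 0.0161, and up to 0.0629 over the alternatives), and by 1.11 without replicate 3 of CTCFL-OE and 1.07 without replicate 1 of CTCFL-KD, past the fold threshold.

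*LTBP3* rose in CTCFL-KD by a log2 fold change of 0.96 (standard error 0.27, edgeR adjusted p = 0.0156), from 180 ± 6.50 CPM (SD, n = 3) to 351 ± 121 CPM. Replicate 1 of CTCFL-KD, at 491 CPM, was the highest of the 9 libraries. Without that library the log2 fold change of *LTBP3* was 0.65, the lowest of the alternatives, and its adjusted p reached 0.0621 without replicate 3 of Control. Without replicate 2 or 3 of CTCFL-KD, *LTBP3* crossed the fold threshold, with log2 fold changes of 1.09 and 1.11, as it did with the length trend removed (1.14), also together with the replicate block (1.09). In CTCFL-OE it was at 223 ± 56.3 CPM (SD, n = 3), with an edgeR adjusted p of 0.566. *LTBP4* had 22.4 ± 1.20 CPM (SD, n = 3) in Control, with CTCFL-OE at 31.6 ± 6.64 CPM and CTCFL-KD at 26.4 ± 4.49 CPM, and passed neither test (edgeR adjusted p = 0.226 and 0.374). 

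**Figure D2:**
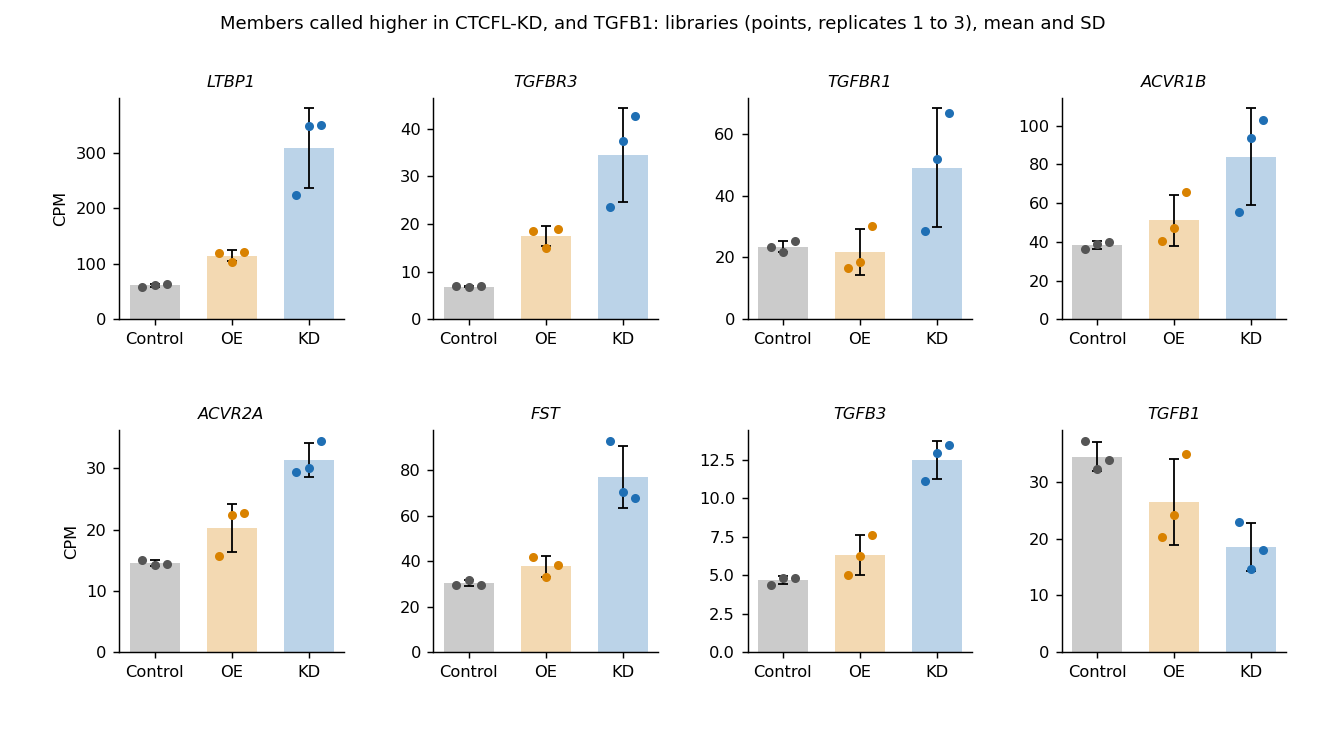
Levels in CPM (vertical axes, each from 0) of the 7 genes called higher in CTCFL-KD and of *TGFB1*, with a point per library from replicate 1 to 3, a bar for the mean and a line for the SD of each group of 3. *LTBP1* and *TGFBR3* have CTCFL-OE libraries between the Control and the CTCFL-KD libraries, from 104 to 120 CPM and from 15.0 to 18.9 CPM.

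The activators and proteases are listed together with the protease inhibitor gene *SERPINE2* and the urokinase receptor gene *PLAUR*. Of these 5 genes, 4 were called lower in CTCFL-KD, against 7.94% of all genes, and 1 in CTCFL-OE, against 0.702%. *TGM2* (ENSG00000198959.12, chr20:38127385-38166578) encodes tissue transglutaminase, which crosslinks latent TGF-beta complexes to the matrix. It had 514, 507 and 534 CPM in Control, 143, 87.2 and 77.7 CPM in CTCFL-OE and 12.8, 15.3 and 18.5 CPM in CTCFL-KD. The lowest Control library was thus far above the highest CTCFL-OE library, and the lowest CTCFL-OE library far above the highest CTCFL-KD library. *TGM2* was 5.05-fold lower in CTCFL-OE (log2 fold change -2.34, standard error 0.26, edgeR adjusted p = 0.0035) and 33.3-fold lower in CTCFL-KD (log2 fold change -5.06, standard error 0.29, edgeR adjusted p = 2.07e-06). Between CTCFL-KD and CTCFL-OE its log2 fold change was -2.72 (standard error 0.26, edgeR adjusted p = 5.63e-05). These calls of *TGM2* held in each of the 20 alternative settings, with adjusted p of up to 0.0314 in CTCFL-OE, and also with glmTreat (adjusted p = 0.0588 in CTCFL-OE).

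*THBS1* encodes thrombospondin 1, an activator of latent TGF-beta. It had 261, 274 and 272 CPM in Control, 75.6, 211 and 359 CPM in CTCFL-OE and 21.9, 54.3 and 54.6 CPM in CTCFL-KD. The CTCFL-OE libraries were spread from well below to above the Control range, and the CTCFL-KD libraries lay below all others. *THBS1* fell in CTCFL-KD, at a log2 fold change of -2.62 (standard error 0.50, edgeR adjusted p = 0.0024), and was also lower there than in CTCFL-OE, with a value of -2.30 (standard error 0.50, edgeR adjusted p = 0.00659). In CTCFL-OE its log2 fold change was -0.32 (standard error 0.47, edgeR adjusted p = 0.749), and it was 0.08 without replicate 1 of CTCFL-OE. Of its exonic bases, 7.58% overlap *FSIP1* or *THBS1-AS1* on the opposite strand.

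*PLAU*, the gene of urokinase, had 128, 129 and 130 CPM in Control, 121, 126 and 172 CPM in CTCFL-OE and 71.3, 43.6 and 59.3 CPM in CTCFL-KD. The CTCFL-KD libraries lay below all others, and CTCFL-OE overlapped Control. *PLAU* fell in CTCFL-KD at a log2 fold change of -1.15 (standard error 0.22, edgeR adjusted p = 0.00212), and relative to CTCFL-OE with a value of -1.27 (standard error 0.22, edgeR adjusted p = 0.00172). Its log2 fold change to Control was -0.97 without replicate 2 of CTCFL-KD (edgeR adjusted p = 0.00837, and between 2.65e-07 and 0.0103 over the alternatives), short of the fold threshold. Its exons overlap those of *C10orf55* on the opposite strand over 31.0% of their bases, so its counts are uncertain without the strand setting. *PLAUR*, which encodes the urokinase receptor, had 23.7 ± 0.752 CPM (SD, n = 3) in Control, with CTCFL-OE at 18.6 ± 8.25 CPM and CTCFL-KD at 14.9 ± 3.68 CPM. It passed neither test, as the edgeR adjusted p was 0.533 for CTCFL-OE and 0.0827 for CTCFL-KD.

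*SERPINE2*, the gene of protease nexin 1, an inhibitor of urokinase and thrombin, had 25.4, 28.1 and 28.2 CPM in Control, 8.16, 13.9 and 27.7 CPM in CTCFL-OE and 9.38, 5.41 and 8.71 CPM in CTCFL-KD. CTCFL-KD lay below Control without overlap, and CTCFL-OE overlapped both. *SERPINE2* fell in CTCFL-KD at a log2 fold change of -1.80 (standard error 0.38, edgeR adjusted p = 0.00416). Its values of -0.72 in CTCFL-OE (edgeR adjusted p = 0.331) and -1.08 between CTCFL-KD and CTCFL-OE (edgeR adjusted p = 0.0565) did not pass. Without replicate 1 of CTCFL-OE or replicate 1 of CTCFL-KD the latter became -1.42 (edgeR adjusted p = 0.0139) and -1.21 (edgeR adjusted p = 0.0461), and passed, as it did in 7 of 20 alternatives, within a range of 5.9e-05 to 0.239 over the alternatives.

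**Figure D3:**
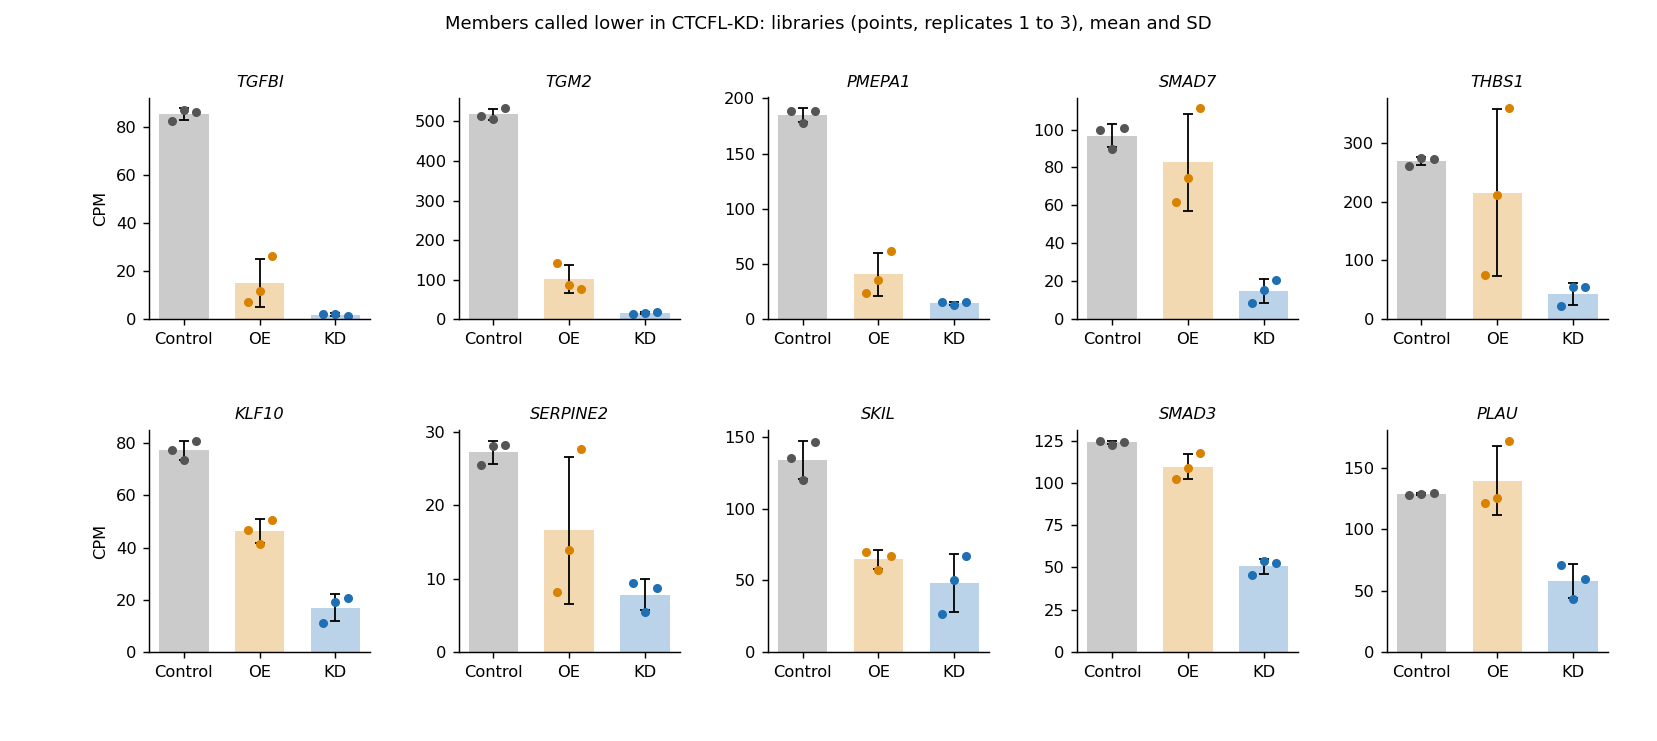
Levels in CPM (vertical axes, each from 0) of the 10 genes called lower in CTCFL-KD, with a point per library from replicate 1 to 3, a bar for the mean and a line for the SD of each group of 3. Replicate 3 of CTCFL-OE is the highest of its group in 8 of the 10 panels, and in *THBS1* at 359 CPM, *SMAD7* at 111 CPM and *PLAU* at 172 CPM it exceeds every Control library.

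The activin antagonists *FST* and *FSTL3* differed in direction in CTCFL-KD. *FST* encodes follistatin, which binds and neutralises activin, and had 29.5, 31.8 and 29.6 CPM in Control, 42.0, 32.8 and 38.4 CPM in CTCFL-OE and 92.9, 70.5 and 67.8 CPM in CTCFL-KD. All CTCFL-KD libraries were above all others, and the lowest CTCFL-OE library was just above the highest Control library. *FST* rose in CTCFL-KD by a log2 fold change of 1.35 (standard error 0.18, edgeR adjusted p = 0.000283), while in CTCFL-OE it was 0.32 (standard error 0.18, edgeR adjusted p = 0.382). Against CTCFL-OE it rose by 1.03 (standard error 0.18, edgeR adjusted p = 0.0019), close to the fold threshold, and it was below that threshold in 9 of 20 alternatives, among them without replicate 2 of CTCFL-OE (0.93) and without replicate 1 of CTCFL-KD (0.88). *FSTL3*, which encodes a related antagonist, had 65.5 ± 3.42 CPM (SD, n = 3) in Control, with CTCFL-OE at 39.3 ± 19.2 CPM and CTCFL-KD at 34.8 ± 7.65 CPM. It fell in CTCFL-KD at a log2 fold change of -0.91 (standard error 0.31, edgeR adjusted p = 0.0366), short of the fold threshold, and without replicate 1 of CTCFL-KD it was called lower at -1.10 (edgeR adjusted p = 0.0149, and between 1.01e-05 and 0.106 over the alternatives). In CTCFL-OE its edgeR adjusted p was 0.242.

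Of the 5 receptor genes, 4 were called higher in CTCFL-KD, against 15.3% of all genes, and 1 in CTCFL-OE, against 1.37%. The calls of *TGFBR1* and *ACVR1B* in CTCFL-KD were lost in some alternatives. *TGFBR3* (ENSG00000069702.11, chr1:91680343-91906335), which encodes the coreceptor betaglycan, had 7.01, 6.68 and 6.94 CPM in Control, 18.6, 15.0 and 18.9 CPM in CTCFL-OE and 23.5, 37.3 and 42.6 CPM in CTCFL-KD. The groups did not overlap and were ordered Control, CTCFL-OE, CTCFL-KD. *TGFBR3* was 2.54-fold higher in CTCFL-OE (log2 fold change 1.35, standard error 0.23, edgeR adjusted p = 0.0232) and 5.02-fold higher in CTCFL-KD (log2 fold change 2.33, standard error 0.23, edgeR adjusted p = 4.1e-05). Without Control replicate 1, 2 or 3, its call in CTCFL-OE was lost, with edgeR adjusted p of 0.145, 0.158 and 0.149 while over the alternatives the adjusted p ran from 3.66e-12 to 0.158. CTCFL-KD exceeded CTCFL-OE by 0.98 on the log2 scale (standard error 0.22, edgeR adjusted p = 0.00783), just short of the fold threshold. That difference passed the threshold without CTCFL-OE replicate 1 (1.03) or 3 (1.03) and without CTCFL-KD replicate 1 (1.19), and with the length trend removed, with or without the replicate block (1.03 in both).

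*TGFBR1*, the gene of the type I receptor of TGF-beta, had 23.4, 21.7 and 25.4 CPM in Control, 16.7, 18.6 and 30.2 CPM in CTCFL-OE and 28.6, 51.8 and 66.8 CPM in CTCFL-KD. CTCFL-KD lay above Control, with replicate 1 close to the Control range and below the highest CTCFL-OE library. *TGFBR1* was called higher in CTCFL-KD at a log2 fold change of 1.06 (standard error 0.31, edgeR adjusted p = 0.019), and against CTCFL-OE with 1.17 (standard error 0.31, edgeR adjusted p = 0.0173). The call against Control was lost without Control replicate 1, 2 or 3 (edgeR adjusted p = 0.0612, 0.0728 and 0.0508), without CTCFL-KD replicate 3 (log2 fold change 0.77, edgeR adjusted p = 0.0702) and with the replicate number as a block (log2 fold change 0.98, edgeR adjusted p = 0.0104), and its adjusted p ran from 0.000201 to 0.0728 over the alternatives. That against CTCFL-OE was lost without CTCFL-OE replicate 1 or 2 and without CTCFL-KD replicate 3, with edgeR adjusted p of 0.071, 0.0758 and 0.0561, and with edgeR on the 2 groups compared (edgeR adjusted p = 0.0563), in a range of 3.74e-05 to 0.0758. In CTCFL-OE the log2 fold change of *TGFBR1* was -0.11 (edgeR adjusted p = 0.876). *TGFBR2*, the gene of the type II receptor, had 212 ± 3.58 CPM (SD, n = 3) in Control, with CTCFL-OE at 130 ± 36.5 CPM and CTCFL-KD at 162 ± 64.0 CPM. All treated libraries of *TGFBR2* lay below all Control libraries, but neither comparison passed (edgeR adjusted p = 0.253 and 0.332).

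*ACVR1B* and *ACVR2A*, the activin receptor genes among the 32, were both called higher in CTCFL-KD. *ACVR1B*, which encodes a type I receptor, had 36.2, 39.1 and 39.8 CPM in Control, 40.2, 47.2 and 65.9 CPM in CTCFL-OE and 55.7, 93.9 and 103 CPM in CTCFL-KD. Both treated groups lay above Control, and they overlapped each other. *ACVR1B* rose by a log2 fold change of 1.13 in CTCFL-KD (standard error 0.25, edgeR adjusted p = 0.00545), and without replicate 3 of CTCFL-KD it was at 0.96 (edgeR adjusted p = 0.0193, and between 6.21e-05 and 0.0286 over the alternatives), below the fold threshold. *ACVR2A*, which encodes a type II receptor, had 15.0, 14.2 and 14.4 CPM in Control, 15.7, 22.4 and 22.7 CPM in CTCFL-OE and 29.4, 30.1 and 34.5 CPM in CTCFL-KD. The 3 groups did not overlap, and replicate 1 of CTCFL-OE was nearest to Control. *ACVR2A* rose by 1.11 on the log2 scale in CTCFL-KD (standard error 0.18, edgeR adjusted p = 0.000942), and 8.39% of its exonic bases overlap *ORC4* or another gene on the opposite strand. In CTCFL-OE, the log2 fold changes of *ACVR1B* and *ACVR2A* were 0.41 and 0.48, with edgeR adjusted p of 0.413 and 0.208.

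Of the signal transducers, *SMAD3* was called lower in CTCFL-KD. It had 125, 123 and 124 CPM in Control, 102, 109 and 118 CPM in CTCFL-OE and 45.5, 53.9 and 52.6 CPM in CTCFL-KD. The replicates lay close together in each group, and no group overlapped another. *SMAD3* fell in CTCFL-KD at a log2 fold change of -1.29 (standard error 0.16, edgeR adjusted p = 0.000147) and relative to CTCFL-OE with a value of -1.11 (standard error 0.16, edgeR adjusted p = 0.000501). In CTCFL-OE its value was -0.18 (standard error 0.15, edgeR adjusted p = 0.57). *SMAD2*, the gene of the other receptor-activated SMAD of the pathway, fell in CTCFL-KD at a log2 fold change of -0.71 (standard error 0.21, edgeR adjusted p = 0.0229, and up to 0.0755 over the alternatives), from 74.6 ± 3.17 CPM (SD, n = 3) to 45.6 ± 9.96 CPM, without passing the fold threshold, and had 60.0 ± 13.1 CPM in CTCFL-OE. *SMAD4*, which encodes the shared partner, had 30.7 ± 1.88 CPM (SD, n = 3) in Control, with CTCFL-OE at 26.6 ± 2.54 CPM and CTCFL-KD at 28.6 ± 5.33 CPM, with edgeR adjusted p of 0.576 and 0.68.

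Among the 32 genes are 5 of inhibitors and corepressors, which were lower in CTCFL-KD, while other pathway genes, given below, moved in both directions. All 5 passed the adjusted p, against 38.2% of all genes in either direction, and 3 of them were called lower, against 7.94%. *SMAD7* (chr18:48919853-48950965), which encodes the inhibitory SMAD and is itself a target of the pathway, had 99.9, 89.6 and 101 CPM in Control, 62.0, 74.6 and 111 CPM in CTCFL-OE and 8.48, 15.6 and 20.8 CPM in CTCFL-KD. The CTCFL-KD libraries were far below all others, and CTCFL-OE lay on both sides of Control. *SMAD7* was 6.42-fold lower in CTCFL-KD than in Control (log2 fold change -2.68, standard error 0.32, edgeR adjusted p = 0.000143) and lower than in CTCFL-OE with a value of -2.45 (standard error 0.32, edgeR adjusted p = 0.000329). In CTCFL-OE its value was -0.23 (standard error 0.30, edgeR adjusted p = 0.718).

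*PMEPA1* (ENSG00000124225.16, chr20:57648392-57711536) encodes a membrane protein that binds SMAD2 and SMAD3 and limits signaling. It had 188, 178 and 189 CPM in Control, 24.2, 35.9 and 62.0 CPM in CTCFL-OE and 15.6, 13.1 and 15.5 CPM in CTCFL-KD. The groups did not overlap, and the highest CTCFL-OE library was well below the lowest Control library. *PMEPA1* was 4.55-fold lower in CTCFL-OE (log2 fold change -2.19, standard error 0.29, edgeR adjusted p = 0.00814) and 12.6-fold lower in CTCFL-KD (log2 fold change -3.65, standard error 0.31, edgeR adjusted p = 1.7e-05). CTCFL-KD lay below CTCFL-OE at a log2 fold change of -1.47 (standard error 0.29, edgeR adjusted p = 0.0042), and each of these calls of *PMEPA1* held in the 20 alternatives. A fit with glmTreat, which tests against the fold threshold itself, did not call *PMEPA1* in CTCFL-OE (adjusted p = 0.156) or between the treated groups (adjusted p = 0.217). Of its exonic bases, 5.98% overlap *NKILA* on the opposite strand.

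*SKIL*, which encodes the SMAD corepressor SnoN, had 136, 120 and 146 CPM in Control, 70.0, 57.0 and 67.1 CPM in CTCFL-OE and 26.4, 50.5 and 66.8 CPM in CTCFL-KD. Both treated groups lay below Control, and they overlapped each other. *SKIL* fell in CTCFL-KD at a log2 fold change of -1.48 (standard error 0.28, edgeR adjusted p = 0.00242). In CTCFL-OE its log2 fold change of -1.05 (standard error 0.28, edgeR adjusted p = 0.101) missed the threshold of the adjusted p, and it was called in 9 of 20 alternatives, over which the adjusted p ran from 2.46e-10 to 0.381. Among the latter were the fits without CTCFL-OE replicate 1, CTCFL-KD replicate 1 and CTCFL-KD replicate 3, with edgeR adjusted p of 0.0823, 0.00217 and 0.0763. *SKI*, a corepressor gene of the same family, fell in CTCFL-KD with a log2 fold change of -0.58 (edgeR adjusted p = 0.0381, and up to 0.124 over the alternatives), from 184 ± 10.4 CPM (SD, n = 3) to 123 ± 28.9 CPM, and had 171 ± 4.16 CPM in CTCFL-OE. *TGIF1*, a gene of a homeodomain corepressor, fell in CTCFL-KD with a log2 fold change of -0.73 (edgeR adjusted p = 0.00441), from 77.6 ± 4.24 CPM (SD, n = 3) to 46.8 ± 2.91 CPM, and had 64.8 ± 6.77 CPM in CTCFL-OE.

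Among the response genes, *TGFBI* and *KLF10* were called lower in CTCFL-KD, and *TGFBI* also in CTCFL-OE. *TGFBI* (ENSG00000120708.17, chr5:136028988-136063818) encodes an adhesion protein of the matrix that is induced by TGF-beta. It had 82.6, 87.2 and 86.4 CPM in Control, 7.30, 11.7 and 26.2 CPM in CTCFL-OE and 2.35, 2.26 and 1.37 CPM in CTCFL-KD. The groups did not overlap, and replicate 3 of CTCFL-OE stood above the other replicates of its group. *TGFBI* was 5.69-fold lower in CTCFL-OE than in Control and 43.4-fold lower in CTCFL-KD. Over the alternatives, its log2 fold change ran from -3.176 to -2.182 in CTCFL-OE and from -5.558 to -5.216 in CTCFL-KD. Between CTCFL-KD and CTCFL-OE, its log2 fold change was -2.93 (standard error 0.44, edgeR adjusted p = 0.000783), and between -3.266 and -2.275 over the alternatives. The call of *TGFBI* in CTCFL-OE, at a log2 fold change of -2.51 and an edgeR adjusted p of 0.0164, was lost without replicate 2 of CTCFL-OE (log2 fold change -2.36, edgeR adjusted p = 0.108), the highest adjusted p in a range that began at 2.46e-20.

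*KLF10*, which encodes an early TGF-beta induced transcription factor, had 77.4, 73.5 and 80.8 CPM in Control, 46.6, 41.4 and 50.7 CPM in CTCFL-OE and 11.1, 19.2 and 20.6 CPM in CTCFL-KD. The groups did not overlap, and CTCFL-OE lay between the others. *KLF10* fell in CTCFL-KD at a log2 fold change of -2.18 (standard error 0.23, edgeR adjusted p = 6.1e-05) and relative to CTCFL-OE with a value of -1.44 (standard error 0.23, edgeR adjusted p = 0.00102). Its value in CTCFL-OE was -0.74 (standard error 0.22, edgeR adjusted p = 0.129), which did not pass. *NEDD9*, the gene of a scaffold protein of focal adhesions, had 51.4 ± 2.63 CPM (SD, n = 3) in Control, with CTCFL-OE at 56.3 ± 11.0 CPM and CTCFL-KD at 44.9 ± 11.9 CPM, with edgeR adjusted p of 0.789 and 0.522.

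**Figure D4:**
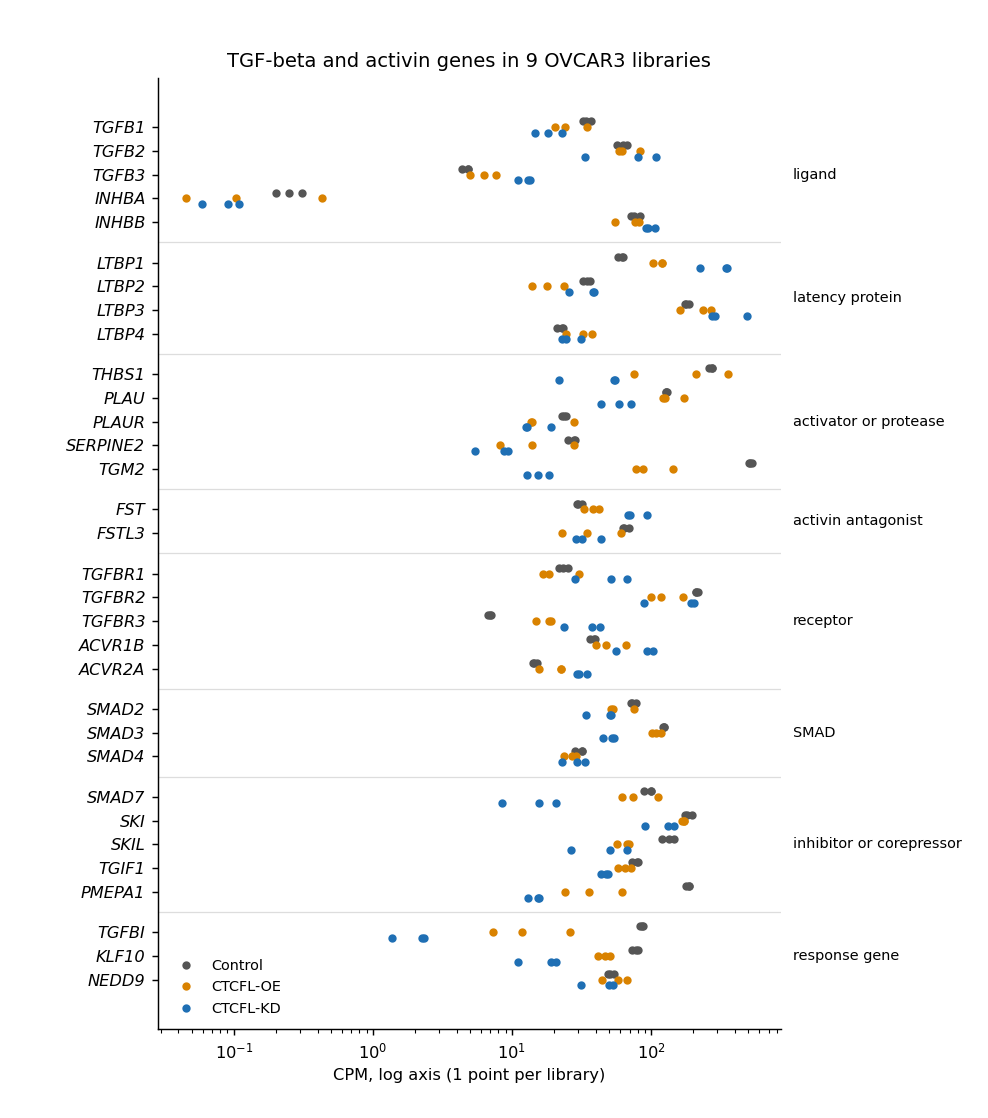
Level of each of the 32 genes in CPM (horizontal log axis) by role, with a point per library of Control (grey), CTCFL-OE (orange) and CTCFL-KD (blue). Control replicates lie close together in most genes, *INHBA* is below 1 CPM in every library, and the CTCFL-KD libraries of *TGM2*, *TGFBI*, *PMEPA1* and *SMAD7* lie apart from the Control libraries.

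Levels of different genes were compared per length, as CPM per kilobase of the canonical transcript in GENCODE. *TGM2* had the highest such level in Control, at 104 ± 2.75 CPM per kb (SD, n = 3), followed by *PLAU* at 55.0 ± 0.416, *TGFBR2* at 46.9 ± 0.789, *PMEPA1* at 37.4 ± 1.23 and *LTBP3* at 37.3 ± 1.35 CPM per kb. The last pair did not differ beyond their spread. *TGFB1* had 12.4 ± 0.924 CPM per kb (SD, n = 3) in Control, close to *TGFB2* at 10.6 ± 0.882, and *TGFB3* was lower at 1.36 ± 0.077 CPM per kb. In CTCFL-KD the order was different, with *LTBP3* highest at 72.7 ± 25.1 CPM per kb (SD, n = 3) and *LTBP1* next at 47.3 ± 11.1 CPM per kb. The spreads of this pair overlapped, and *LTBP3* was at 491 CPM in replicate 1 of CTCFL-KD, against 289 and 274 CPM in replicates 2 and 3. *TGM2* was at 3.13 ± 0.576 CPM per kb (SD, n = 3) in CTCFL-KD, near the level of *TGFB3* at 3.64 ± 0.359. The level of *SMAD2* per length, 2.15 ± 0.0916 CPM per kb in Control, rests on a canonical transcript of 34626 bases.

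Replicates 1 of CTCFL-OE and CTCFL-KD stood furthest from the others of their groups. For each pair of libraries, a chi-square statistic of the counts per gene gave between 3.21 and 7.53 in Control. In CTCFL-OE it was 50.4, 104 and 25.1 for replicates 1 and 2, 1 and 3, and 2 and 3. In CTCFL-KD it was 145, 153 and 8.23 for the same pairs, so replicates 2 and 3 lay near the Control range. In CTCFL-OE, replicate 3 was the highest of its group for 26 of the 31 genes, against 31.9% of all genes, and replicate 1 the lowest for 21, against 40.3% of all genes. In CTCFL-KD, replicate 1 was the lowest for 19 of the 31, against 46.2% of all genes, and replicate 3 the highest for 19, against 28.6%. Replicate 1 of CTCFL-KD also had the lowest TMM factor, 0.775, and its log2 ratio to replicates 2 and 3 fell with transcript length across 11973 genes (Spearman correlation -0.65, a description, since genes are not independent replicates). With the genes split by length into 5 groups of equal size, the median log2 ratio was 0.93 in the shortest group and -0.74 in the longest. Among the pathway genes, the log2 ratio was highest for *LTBP3* (0.80) and *PLAUR* (0.58) and lowest for *TGFB2* (-1.48), *THBS1* (-1.31), *TGFBR2* (-1.17), *SKIL* (-1.13), *SMAD7* (-1.08) and *TGFBR1* (-1.04). With a length trend removed from each library, the 17 genes called in CTCFL-KD kept their calls and *LTBP3* was called as well, 18 in all. The fits without replicate 1 of CTCFL-KD that changed a call are given beside each gene.

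**Figure D5:**
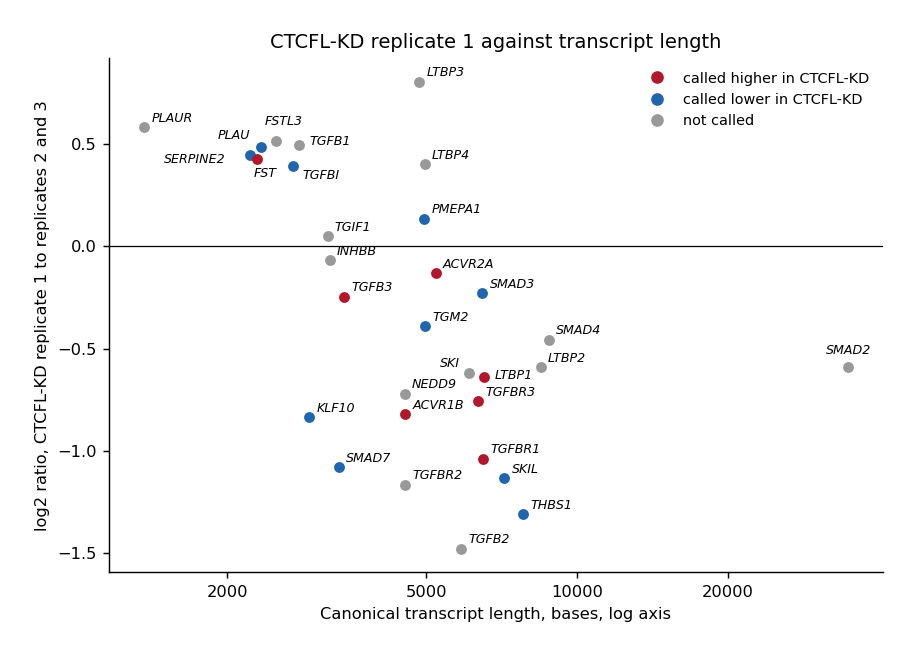
Log2 ratio of replicate 1 of CTCFL-KD to the mean of replicates 2 and 3 (vertical axis) against canonical transcript length in bases (horizontal log axis), with a point per tested gene, colored by its call in CTCFL-KD against Control. The ratio runs from 0.80 for *LTBP3*, with 4833 bases, to -1.48 for *TGFB2*, with 5868 bases, and the longest transcript, *SMAD2* with 34626 bases, is at -0.59.

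Beyond the 32 genes, 68 other genes of the pathway were examined, of which 56 had enough counts to be tested. In CTCFL-OE, 1 was called higher, against 1.37% of all genes, and 3 lower, against 0.702%, and 5 passed the adjusted p, against 3.15%. Their median log2 fold change was -0.06. *GDF15*, which encodes a distant relative of TGF-beta induced by stress, was higher, from 3.07 ± 0.599 CPM (SD, n = 3) to 13.5 ± 7.58 CPM (log2 fold change 2.13, edgeR adjusted p = 0.0561). *ITGB6*, which encodes the beta chain of an integrin that activates latent TGF-beta, was lower, from 158 ± 1.52 CPM (SD, n = 3) to 35.2 ± 9.91 CPM (log2 fold change -2.17, edgeR adjusted p = 0.0035). *CDKN2B*, the gene of a cell cycle inhibitor induced by TGF-beta, was lower, from 121 ± 7.09 CPM (SD, n = 3) to 44.6 ± 3.11 CPM (log2 fold change -1.44, edgeR adjusted p = 0.0113). *FN1*, which encodes fibronectin, was the remaining gene, with a log2 fold change of -1.60 (edgeR adjusted p = 0.0795). The calls of *GDF15* and *FN1* were lost without replicate 1, 2 or 3 of Control and without replicate 2 or 3 of CTCFL-OE, with edgeR adjusted p of up to 0.273 and 0.282, in ranges that began at 2.22e-12 and 2.7e-08 over the alternatives. That of *FN1* was also lost without replicate 2 of CTCFL-KD (edgeR adjusted p = 0.105), and those of *ITGB6* and *CDKN2B* held in the 20 alternatives.

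In CTCFL-KD, 7 of the 56 were called higher, against 15.3% of all genes, and 14 lower, against 7.94%, so the share called higher was not above that of all genes. The median log2 fold change was -0.37, and 29 passed the adjusted p, against 38.2% of all genes. Of the genes of latency and activation, *LRRC32*, *NRROS* and *FBN2* were called higher and *ITGB6* lower. *LRRC32* encodes GARP, which anchors latent TGF-beta at the cell surface, and rose from 3.50 ± 0.563 CPM (SD, n = 3) to 30.2 ± 9.62 CPM (log2 fold change 3.10, edgeR adjusted p = 2.55e-05). *NRROS*, which encodes a relative of GARP, rose from 2.24 ± 0.414 CPM (SD, n = 3) to 12.8 ± 2.25 CPM (log2 fold change 2.51, edgeR adjusted p = 2.84e-05). *FBN2*, the gene of fibrillin 2, to which latent complexes bind, rose from 196 ± 22.8 CPM (SD, n = 3) to 927 ± 368 CPM (log2 fold change 2.25, edgeR adjusted p = 0.000286). Both ligand genes *INHBE* and *GDF15* were higher, with log2 fold changes of 3.96 and 2.46 and edgeR adjusted p of 0.000953 and 0.00221. *INHBE* had 0.441 ± 0.0353 CPM (SD, n = 3) in Control and 6.90 ± 4.32 CPM in CTCFL-KD, where its libraries were at 4.42, 4.40 and 11.9 CPM. Over the alternatives, the log2 fold change of *INHBE* in CTCFL-KD ran from 3.294 to 4.221 and that of *GDF15* from 2.12 to 2.811.

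In CTCFL-KD, *ITGB6* fell to 10.8 ± 2.34 CPM (SD, n = 3), a log2 fold change of -3.86 (edgeR adjusted p = 4.52e-06). Several response genes were also called lower. *MMP2*, the gene of a matrix metalloproteinase, fell from 91.1 ± 1.72 CPM (SD, n = 3) to 13.6 ± 4.28 CPM, a log2 fold change of -2.75 (edgeR adjusted p = 0.000197). *CDKN2B* fell to 18.2 ± 4.92 CPM (SD, n = 3), a log2 fold change of -2.73 (edgeR adjusted p = 1.17e-05). *FN1*, *SNAI1* and *JUNB*, the genes of fibronectin and of a pair of transcription factors, had log2 fold changes of -1.90, -1.84 and -1.53, with edgeR adjusted p of 0.00365, 3.94e-05 and 0.000163. Directly against CTCFL-OE, 5 of the 56 genes were called higher in CTCFL-KD, against 10.6% of all genes, and 10 lower, against 6.42%. Among these were *LRRC32* (log2 fold change 3.06, edgeR adjusted p = 4.54e-05), *MMP2* (-2.68, edgeR adjusted p = 0.000316) and *ITGB6* (-1.70, edgeR adjusted p = 0.000584).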

How the data were processed

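The counts per gene were made and deposited by the authors, without normalization, from stranded paired-end mRNA libraries of the 9 samples. The submitters' processing notes name Trimmomatic, kallisto, featureCounts and GRCh38, and the study's methods name STAR and featureCounts of Rsubread. Strand setting, annotation release and handling of multimapping reads are not given in the sources used here, so counts of overlapping genes are uncertain. Identifiers were matched to GENCODE release 44 on GRCh38, which named 60419 of 60660, and promoter sequences came from RefSeq on GRCh38.p14.

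Groups and replicate numbers came from the sample labels. The fit used edgeR 4.0.16 under R 4.3.3, with filterByExpr, TMM scaling and the functions glmQLFit (robust) and glmQLFTest. It took the 9 libraries together, and its model held no factor but the condition. P-values were adjusted by Benjamini-Hochberg over 17794 genes, and the code was tested on simulated data. Standard errors were computed as |log2 fold change| / sqrt(F). Python 3.11.15, pandas 2.3.3 and matplotlib 3.10.9 were used for tables and figures. A gene at or under 3 counts in every library of a group was set to 3 counts per library for its fold. Counts carry no molecular identifiers, so this floor covers counting error only.

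Alternative settings comprised DESeq2 1.42.0 on all 9 libraries or on the 2 groups of a comparison, edgeR on those 2 groups, scaling by RLE or by upper quartile, no filter on counts, a filter of 10 or more counts in each library, robust fitting switched off, the replicate number as a block, a trend with transcript length removed from each library, both of these together, each library left out, and, for counts of calls, glmTreat against a log2 fold change of 1.

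For pairing, same-numbered CTCFL-KD and Control libraries were centered on their groups, and the correlations were 0.373, 0.216 and 0.261 across 12000 genes. With the length trend removed they were lower, at 0.21, 0.195 and 0.141. Only same-numbered libraries were compared, so these correlations cannot decide whether the numbers pair the libraries. The main fit took no libraries as paired, and the study describes the knockdown as an earlier experiment. For CTCFL-OE and Control the correlations were -0.051, 0.221 and -0.053, and pairing was left undecided there as well.

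All 32 genes are named, with each library's value for *CTCFL*, *TGFB1* and the genes called in either comparison with Control. Of the 68 other pathway genes, at most 12 called genes per comparison with Control are named, by absolute log2 fold change, with at least 1 CPM in 1 group. The SMAD regulators, receptors and coreceptors of that list that were called in CTCFL-KD are named in addition. The 32 genes and the lists were chosen with earlier results of these data known.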

Additional observations from a re-analysis of the deposited data

How the results depend on the processing

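Of the 17 genes called in CTCFL-KD, 14 were called in each of 20 alternatives, as were 2 of 4 for CTCFL-OE and 9 of 11 for CTCFL-KD against CTCFL-OE. Genes that lost or gained a call in these are given with the results. With the replicate block, *TGFBR1* in CTCFL-KD lost its call (0.98, adjusted p = 0.0104), and no other of the 31 genes changed its call against Control. The block called 302 genes in CTCFL-OE against 368, and 4027 in CTCFL-KD against 4132.

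In CTCFL-OE, the 368 calls among all genes became 752 with DESeq2 and 835 with edgeR on the groups compared, 826 without the count filter, and 662 with the length trend removed (508 higher and 154 lower, against 243 and 125). They became 579 with block and trend, 14 with glmTreat and 44 to 1184 without 1 library. Lower calls outnumbered higher ones without Control replicate 1 (17 higher, 28 lower), 2 (25 and 36) or 3 (18 and 26), without CTCFL-OE replicate 3 (47 and 62) and with glmTreat (2 and 12). The 4 calls among the 31 genes became 1 with glmTreat (*TGM2*) and 3 to 5 without 1 library. The 4 among the other pathway genes became 7 in both DESeq2 fits, 8 with edgeR on the groups compared, 7 without the filter, 8 with the length trend removed, 7 with block and trend, 1 with glmTreat and 2 to 8 without 1 library.

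In CTCFL-KD against Control, glmTreat gave 1519 calls in place of 4132, 8 in place of 17 among the 31 genes and 11 in place of 21 among the other pathway genes. The 8 were *LTBP1*, *THBS1*, *TGM2*, *TGFBR3*, *SMAD7*, *PMEPA1*, *TGFBI* and *KLF10*. Without 1 library the counts ranged over 3661 to 4511, 16 to 19 and 19 to 22. The 3032 calls of CTCFL-KD against CTCFL-OE became 1947 with at least 10 counts in every library, 1054 with glmTreat and 2544 to 3404 without 1 library. The 11 among the 31 genes became 3 with glmTreat (*TGM2*, *SMAD7* and *TGFBI*) and 9 to 14 without 1 library, and the 15 among the other pathway genes 7 and 14 to 17.

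The log2 fold changes that changed sign in some alternative belong to genes not called in that comparison. Without replicate 3 of CTCFL-OE, those in CTCFL-OE were -0.049 for *TGFB2*, -0.065 for *PLAU*, -0.013 for *NEDD9*, -0.221 for *INHBB*, -0.917 for *THBS1* and -0.424 for *TGFBR1*. Without replicate 1 of CTCFL-OE they were 0.221 for *TGFB2*, 0.204 for *PLAU*, 0.046 for *INHBB*, 0.075 for *THBS1* and 0.045 for *TGFBR1*, and without replicate 2 *NEDD9* was at 0.268.

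In CTCFL-KD, without replicate 1 the values were 0.606 for *TGFB2*, 0.165 for *LTBP2*, 0.039 for *SMAD4* and 0.012 for *NEDD9*. Without replicate 3 they were -0.128 for *TGFB2*, -0.233 for *SMAD4* and -0.339 for *NEDD9*. *LTBP2* was at -0.098 without replicate 2, 0.015 with upper-quartile scaling, 0.094 with the length trend removed, 0.095 with block and trend and 0.020 without Control replicate 2. *SMAD4* was at 0.008 with the length trend removed, and also with block and trend.

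Between CTCFL-KD and CTCFL-OE, *TGFB2* was at 0.473 without CTCFL-KD replicate 1 and -0.254 without replicate 3, and *SMAD4* at 0.240 and -0.025. *PLAUR* was at -0.532 without CTCFL-KD replicate 1 and 0.096 without CTCFL-OE replicate 3, and *FSTL3* at -0.452 without CTCFL-OE replicate 1 and 0.270 without replicate 3. The cause was not tested.

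With 3 libraries in a group, the number of calls in CTCFL-OE depended on single libraries, and glmTreat, which tests against the fold threshold itself, called fewer genes. *INHBA* was not tested, and the level of *CTCFL* in CTCFL-KD is known as an upper bound. The knockdown came from a separate experiment without its own control in the series, so effects of the knockdown and of the experiment cannot be told apart. Transcript levels of bulk RNA do not give protein amounts, ligand activation or receptor signaling.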
